A study of Mus musculus with 6 samples.

Results

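The Krüppel-like factors are zinc finger transcription factors that bind GC-rich and CACCC sequences through their C-terminal fingers, and that activate or repress genes depending on the partners their N-terminal parts recruit. In blood they are known for roles in cell quiescence, homing and the monocyte programme, and several are among the genes that cells switch on within minutes of a stimulus. The 8 members described here are Klf2, Klf3, Klf4, Klf6, Klf7, Klf9, Klf10 and Klf13, family genes expressed in blood cells other than the erythroid factor Klf1. They were found by gene symbol, and all 8 of 8 were present among the 54532 genes of the deposited table.

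The libraries came from GFP+ leukemia cells sorted from bone marrow of mice carrying the RUNX1-ETO9a (RE9a) fusion, a truncated form of the t(8;21) product that drives acute myeloid leukemia. WT Phf6,RE9a cells (replicates 1, 2 and 3, n = 3) carried floxed Phf6 without Cre, and VC Phf6,RE9a cells (replicates 11, 12 and 13, n = 3) carried Vav1-Cre, which deletes the X-linked Phf6 in the blood lineage from fetal life on. Both groups began as fetal liver progenitors transduced with the same RE9a-GFP retrovirus and were passed through recipient mice, so the fusion, the virus and the transplantation were shared. The labels do not give which passage was sequenced, or whether the libraries of a group came from different mice or leukemias, so p-values measure the spread between these libraries, which may be partly technical. Within a group the libraries nevertheless differed by more than counting noise, with a mean chi-square per gene of 11.8 for the closest pair, where counting noise alone gives about 1 per gene.

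Each library held 15675358 to 16817994 counts. A gene at 0 counts could still have had up to 3 counts at this depth, which is at most 0.204 CPM (counts scaled to library size, with TMM) in any library, a limit that covers counting error only. Phf6 was 67.8, 56.1 and 69.1 CPM in WT and 22.9, 18.3 and 19.7 CPM in VC, a log2 fold change of -1.66 (SE 0.13, edgeR adjusted p = 9.3e-05), so the libraries followed their labels. Ptprc, the leukocyte common antigen CD45, was low, with 32.5, 12.2 and 23.4 CPM in WT and 56.7, 48.4 and 18.2 CPM in VC. Spi1, the myeloid master regulator PU.1, lay between 76.1 and 105 CPM in all 6 libraries. The groups overlapped for both genes, and neither passed the test. Itgam, a further myeloid gene, went from 17, 19 and 78 counts in WT to 333, 194 and 78 in VC. It was called higher (log2 fold change 2.31, edgeR adjusted p = 0.027), although its groups also overlapped.

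Promoter sequence is shown for the 3 members that fell in VC cells, to set the start regions of the genes that moved in the same direction side by side. Each is the part of the RefSeq window before the gene start in the deposited table (GRCm38.p6, gene strand, 5′ to 3′). Klf2 covers chr8:72318812-72319032, Klf6 chr13:5861239-5861481 and Klf9 chr19:23140976-23141225, all on the plus strand. Capitals mark a MEF2-type sequence (CTA and TAG, 4 bases apart) in Klf2 and CCAAT boxes (CCAAT, or ATTGG where the box is on the other strand) in Klf6 and Klf9.
Klf2: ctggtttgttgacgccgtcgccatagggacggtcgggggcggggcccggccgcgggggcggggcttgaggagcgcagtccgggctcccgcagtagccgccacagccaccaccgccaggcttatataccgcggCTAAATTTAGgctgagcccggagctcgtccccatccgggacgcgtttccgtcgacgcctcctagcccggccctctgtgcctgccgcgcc
Klf6: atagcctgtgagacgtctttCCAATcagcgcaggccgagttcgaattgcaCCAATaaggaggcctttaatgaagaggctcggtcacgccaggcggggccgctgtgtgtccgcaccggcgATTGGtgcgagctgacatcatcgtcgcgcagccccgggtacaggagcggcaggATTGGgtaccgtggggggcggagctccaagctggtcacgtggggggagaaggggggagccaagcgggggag
Klf9: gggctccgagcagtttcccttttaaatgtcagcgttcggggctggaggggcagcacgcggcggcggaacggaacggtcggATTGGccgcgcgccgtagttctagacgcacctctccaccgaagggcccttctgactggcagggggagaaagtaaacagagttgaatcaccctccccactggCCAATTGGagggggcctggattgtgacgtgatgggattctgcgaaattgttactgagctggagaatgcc

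The MEF2-type sequence of Klf2 lay 89 bases before the deposited start. MEF2 factors are known to drive Klf2 through such an element, and the letters were present in 3.2% of the 32851 RefSeq promoter windows of the same length (250 bases before the start, both strands). Klf6 held 4 CCAAT boxes and Klf9 held 3, of which a pair on opposite strands share bases, and 33.8% of windows held at least 1. Klf13, which did not pass the test, held 2. Klf9 also had 1 match to a loose AP-1 pattern (TGANTCA, any base in the centre, found in 6.75% of windows), 89 bases before its start. The match read TGAATCA, so it is AP-1-like only. Klf6 and Klf4 had 1 E-box each (CACGTG, in 6.02%). The core that KLF and SP proteins themselves recognise (CCNCNCCC, overlapping copies counted, in 45.9% of windows) was present 4 times in Klf2, 2 times in Klf6 and 0 times in Klf9, and 10 times in Klf3, 9 in Klf4, 8 in Klf7 and 5 in Klf13. The RefSeq window of Klf7 lies inside the deposited gene. No NF-kB or RUNX (TGTGGT) sequence occurred in the windows of the 7 members matched, against 1.41% and 14.0% of all windows, which says only that these letters are not in these windows. The printed stretches were 71.5% G and C for Klf2 (221 bases), 64.2% for Klf6 (243 bases) and 59.6% for Klf9 (250 bases), and the median over all whole windows of 250 bases was 52.4%.

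Compared per length, 2 members stood far above the rest. In WT cells Klf6 reached 1050 ± 218 FPKM (fragments per kilobase, scaled for library size, mean ± SD, n = 3) and Klf2 477 ± 162 FPKM, while the other 6 members lay between 12.9 ± 1.9 FPKM for Klf13 and 2.07 ± 0.97 FPKM for Klf4. The WT ranges of Klf13, Klf9, Klf3, Klf7 and Klf10 ran into those of their neighbours in this order, and Klf4 was below all of them in every WT library. In VC cells Klf6 was still highest, at 358 ± 128 FPKM, followed by Klf2 at 78.5 ± 40.6 FPKM. Next came Klf13 at 15.1 ± 1.3 FPKM and Klf10 at 13.5 ± 1.3 FPKM, whose ranges overlapped, then Klf3 at 8.49 ± 0.53, Klf7 at 7.99 ± 0.54, Klf9 at 6.25 ± 1.07 and Klf4 at 5.07 ± 3.42 FPKM. The VC range of Klf7 touched those of Klf3 and Klf9, and the range of Klf4 ran over all 3. Klf10 and Klf9 thus changed places in the order.

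**Figure D1:**
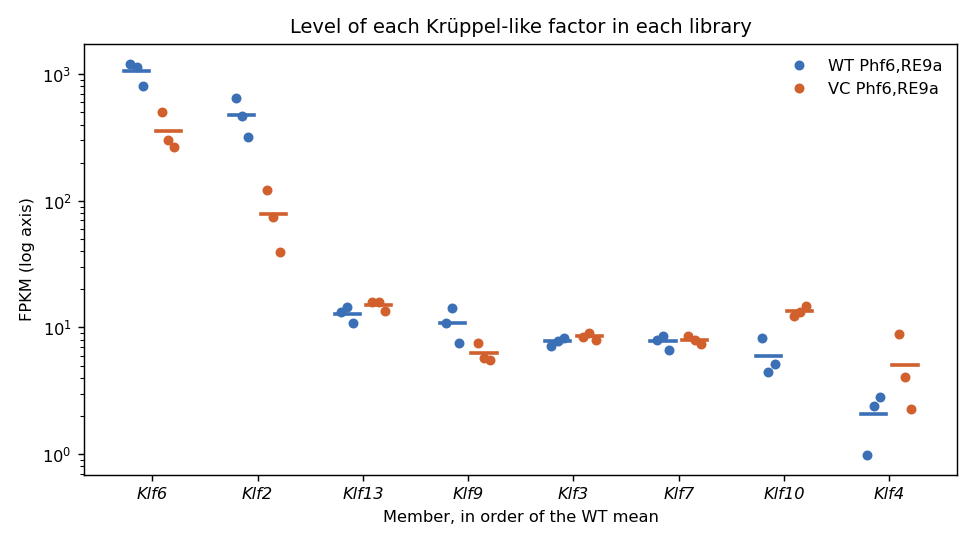
FPKM on a log axis for each member in each library (points, 3 per group) with the group mean (bar), WT Phf6,RE9a in blue and VC Phf6,RE9a in orange. Klf6 and Klf2 sit far above the other 6 members, and both are lower in every VC library than in every WT library.

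Of the 8 members, all of which passed the filter on low counts, 1 was higher in VC cells (Klf10), 3 were lower (Klf2, Klf6 and Klf9) and 4 did not pass the test (edgeR quasi-likelihood test, Benjamini-Hochberg adjusted p under 0.05). Over the 14169 genes tested, 44.2% were called, 21.5% higher and 22.7% lower, so the share of members called is near that of genes in general. The CPM ranges of the 2 groups did not touch for 4 members (Klf2, Klf6, Klf9 and Klf10), against 57.3% of all genes tested. Before adjustment 5 members, Klf4 among them, had a p under 0.05, against 52.1% of all genes tested. The median log2 fold change was 0.10 for the members and 0.01 for all genes, and the median size regardless of sign was 0.99 for the members and 0.44 for all genes.

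Klf2, which keeps lymphocytes quiescent, limits myeloid activation and is a direct product of the MEK5, ERK5 and MEF2 cascade, had the largest change. The gene lies at chr8:72319033-72321656 on the plus strand (GRCm38), 2624 bases in all. It counted 1191, 867 and 599 CPM in WT replicates 1, 2 and 3 and 226, 139 and 74.7 CPM in VC replicates 11, 12 and 13. Every VC library was below every WT library. The means were 886 ± 296 and 147 ± 75.8 CPM, a log2 fold change of -2.59 (SE 0.41, 95% interval -3.55 to -1.64, adjusted p = 0.0020), or 6.04-fold lower in VC. Of the genes tested, 96.6% had a log2 fold change above that of Klf2. By raw count Klf2 stood between places 78 and 201 in the WT libraries and between 826 and 3320 in the VC libraries.

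Klf6, a growth-inhibiting factor that is induced as an immediate-early gene and promotes inflammatory genes in macrophages, was among the most abundant transcripts. Its gene lies at chr13:5861482-5870394 on the plus strand. It counted 5325, 5021 and 3562 CPM in WT and 2244, 1335 and 1199 CPM in VC. The groups did not overlap, and inside them WT replicate 3 lay apart on the low side and VC replicate 11 on the high side. The log2 fold change was -1.54 (SE 0.27, interval -2.17 to -0.92, adjusted p = 0.0031), or 2.91-fold lower. In WT libraries Klf6 held 0.353% to 0.488% of all counts and ranked 7, 8 and 9, and in VC libraries it held 0.126% to 0.233% and ranked 16, 41 and 51. Its absolute log2 fold change exceeded that of 85.6% of the genes tested.

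Klf9, a glucocorticoid- and thyroid hormone-induced factor, changed less. Its gene lies at chr19:23141226-23166911 on the plus strand in the deposited table, and GENCODE M21 extends its end. It counted 35.4, 46.5 and 25.1 CPM in WT and 24.7, 18.8 and 18.4 CPM in VC, so the lowest WT library and the highest VC library nearly met. The log2 fold change was -0.79 (SE 0.23, interval -1.32 to -0.25, adjusted p = 0.027). The call was lost when any 1 of 4 libraries was left out (WT replicate 1 or 2, VC replicate 12 or 13), with adjusted p = 0.060 to 0.089 in edgeR.

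Klf10, also called TIEG1, is induced by TGF-β and represses growth, in part by repressing the inhibitory Smad7. Its gene lies at chr15:38291463-38300706 on the minus strand. It was the one member that rose, from 34.5, 18.6 and 21.9 CPM in WT to 52.4, 55.5 and 63.3 CPM in VC. The VC libraries lay close together and above all WT libraries. The means were 25.0 ± 8.4 and 57.1 ± 5.6 CPM, a log2 fold change of 1.19 (SE 0.22, interval 0.68 to 1.70, adjusted p = 0.0038).

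Klf4, which directs monocyte differentiation and is a pluripotency factor, was the scarcest and most variable member. It counted 2.99, 7.40 and 8.72 CPM in WT and 27.5, 12.4 and 7.07 CPM in VC. VC replicate 13 lay inside the WT range, and VC replicate 11 carried most of the group mean. The log2 fold change of 1.30 (SE 0.55, interval 0.03 to 2.56) did not pass the test (adjusted p = 0.090). It was 0.62 (adjusted p = 0.36) without VC replicate 11 and 1.64 (adjusted p = 0.038) without VC replicate 13, and DESeq2 called it (1.29, adjusted p = 0.023).

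The remaining 3 members did not pass the test, and the intervals bound how far they could have moved. Klf13, which controls Ccl5 in lymphocytes, was 100, 110 and 82.2 CPM in WT and 120, 120 and 104 CPM in VC (log2 fold change 0.24, interval -0.05 to 0.52, adjusted p = 0.15). Klf3, which represses through C-terminal binding protein and is a target of Klf1 in red cell precursors, was 80.8, 88.1 and 94.3 CPM in WT and 96.4, 102 and 91.4 CPM in VC (0.14, interval -0.07 to 0.35, adjusted p = 0.24). Klf7, a regulator of neuronal and lymphoid survival, was 65.2, 70.0 and 55.0 CPM in WT and 70.3, 65.4 and 61.7 CPM in VC (0.05, interval -0.20 to 0.31, adjusted p = 0.72). The groups overlapped for all 3. Klf13 passed the test (0.39, adjusted p = 0.025) when libraries were scaled by their totals alone, a scaling that moved the median of all genes from 0.01 to 0.16. With that scaling 4048 genes were called higher and 2474 lower, against 3047 and 3213 with TMM. Genes annotated across Klf3, Klf7, Klf9 and Klf13, some on the opposite strand, held at most 32 counts in any library.

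**Figure D2:**
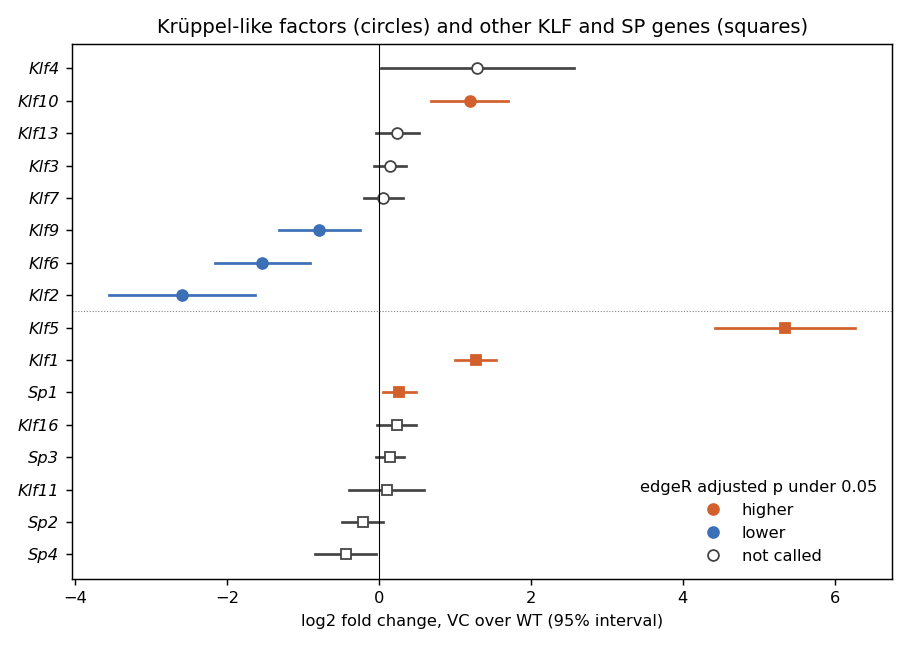
log2 fold change (VC over WT) with its 95% interval for the 8 members (circles) and the other KLF and SP genes tested (squares), without Klf8, whose WT libraries are all at 0. Klf2, Klf6 and Klf9 lie left of 0, Klf10 lies right of it, and the interval of Klf4 is the widest of the 8.

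The summed level of the members followed the abundant pair. Their summed level was 1906, 1652 and 1165 FPKM in WT and 687, 433 and 360 FPKM in VC, and the WT mean was 3.19 times the VC mean. The groups did not overlap. Klf6 and Klf2 made up 96.9% ± 0.5 of this sum in WT and 87.9% ± 2.8 in VC. The make-up within the pair also differed, since Klf6 was 1.88, 2.44 and 2.50 times the Klf2 level per length in WT and 4.18, 4.03 and 6.75 times in VC.

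**Figure D3:**
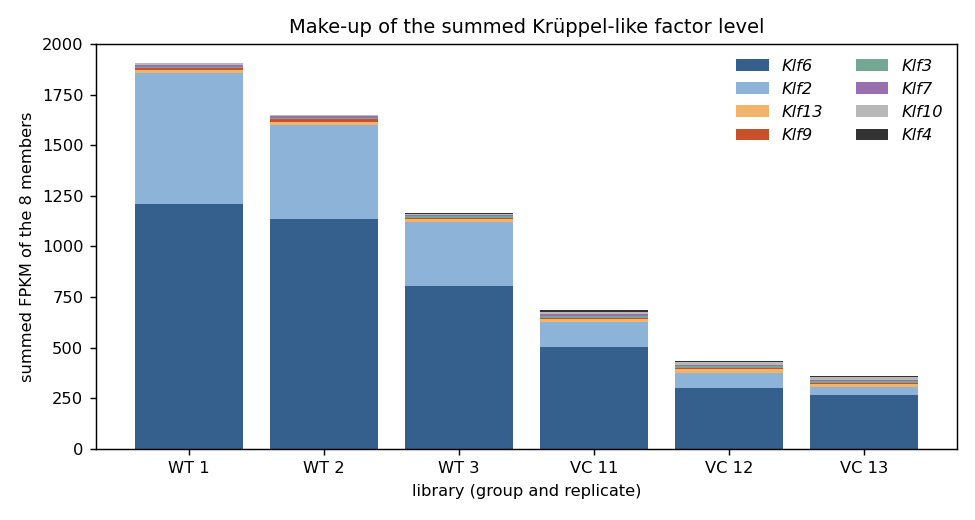
Summed FPKM of the 8 members in each library, stacked by member, on a linear axis from 0. The stack falls from 1906 in WT replicate 1 to 360 in VC replicate 13, and Klf6 and Klf2 fill most of every bar.

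Among the other KLF and SP genes, 9 of 18 passed the filter, and of these 4 rose, 0 fell and 5 did not pass the test, with a median log2 fold change of 0.23. Klf1, the erythroid master regulator, counted 950, 843 and 1267 reads in WT and 2608, 2694 and 2720 in VC (log2 fold change 1.27, SE 0.12, adjusted p = 0.00018). Klf5, a proliferation-associated factor, went from 2, 1 and 4 counts to 120, 104 and 101 (adjusted p = 7.9e-05). Klf8, a repressor, had no count in WT and 62, 54 and 35 in VC (adjusted p = 0.00060), at least 14.6-fold higher when the VC mean is set against the limit of 3 counts in 1 WT library. Sp1, the ubiquitous founder of the SP branch, passed the test narrowly, with a log2 fold change of 0.27 (adjusted p = 0.049), and the call was lost in DESeq2 (adjusted p = 0.081), with its size factors (0.052), with no count filter (0.095), in both limma fits (0.057 and 0.056) and when any library but WT replicate 3 was left out (adjusted p = 0.071 to 0.13). Klf11, the closest relative of Klf10, stood at 0.10 (adjusted p = 0.73), Klf16 at 0.23 (0.12), Sp2 at -0.22 (0.17), Sp3 at 0.14 (0.19) and Sp4 at -0.44 (0.071). Klf16 (0.38, adjusted p = 0.028) and Sp3 (0.29, adjusted p = 0.037) passed the test with libraries scaled by totals alone. Klf12, Klf14, Klf15, Klf17 and Sp5 to Sp9 had too few counts to be tested.

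Partners of the family did not move one way, where 44.2% of all genes tested were called in either direction. Of 10 corepressors and coactivators, 3 rose (Ctbp1 by 0.31, Hdac1 by 0.29 and the acetyltransferase Ep300 by 0.36 on the log2 scale), 1 fell (Crebbp, -0.44) and 6 did not pass the test, with a median of 0.15. Without any 1 VC library only 1 was called higher, and the call of Crebbp was lost without VC replicate 11, where 0 were called lower. Ctbp1, which Klf3 recruits, was the most abundant, at 4834, 3912 and 4970 counts in WT and 5803, 6490 and 6231 in VC (adjusted p = 0.032), and its call was lost without WT replicate 2 or without any 1 VC library (adjusted p = 0.058 to 0.11) and with no count filter (0.056).

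Of 8 ubiquitin ligases that act on the family's proteins, 1 rose and 4 fell, and the median was -0.58. Wwp1, a ligase of Klf2 and Klf5 protein, rose from 71, 98 and 72 counts to 229, 281 and 222 (log2 fold change 1.46, adjusted p = 0.0016). Smurf1, which targets Klf2 protein, fell from 877, 789 and 644 counts to 205, 205 and 230 (-1.99, adjusted p = 0.00012). Itch, a ligase that acts on Klf10 (log2 fold change -0.50), Siah1a (-0.66) and Fbxo32 (-3.67) fell as well. RNA levels of ligases say nothing of protein turnover, which was not measured.

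Genes of the pathways known to induce the members were measured as well. Of the 7 tested genes of the MEK5, ERK5 and MEF2 cascade that feeds Klf2 and Klf4, 4 fell (Map3k3, -0.55; Mapk7, which encodes ERK5, -0.43; Mef2a, -0.44; Mef2d, -0.43), 1 rose (Mef2c, 1.95) and the median was -0.43. With libraries scaled by totals alone, 0 of these genes were called lower, only 1 was called lower without VC replicate 11 or 13 and 2 without WT replicate 1 or VC replicate 12. Mef2d was the most abundant, at 2494, 2434 and 2163 counts in WT and 2052, 1901 and 1833 in VC, and Mef2c the scarcest of the tested MEF2 genes, at 12, 5 and 17 against 75, 33 and 35, with its call lost without VC replicate 11. Of the FOXO factors, which induce Klf2 in lymphocytes, Foxo3 rose by 0.40 (adjusted p = 0.0088), and Foxo1 and Foxo4 did not pass the test (median of the 3, -0.13).

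Of 11 tested TGF-β and SMAD genes, the pathway upstream of Klf10, 2 rose and 7 fell, and the median was -0.61. Both receptors fell, Tgfbr1 from 2010, 1406 and 1083 counts to 316, 430 and 340 (log2 fold change -2.19, adjusted p = 0.00045) and Tgfbr2 less (-0.96). Smad7, the inhibitory SMAD that Klf10 represses, fell from 349, 465 and 407 counts to 253, 155 and 208 (-1.12, adjusted p = 0.0047). Smad3, a signal-carrying SMAD, rose from 600, 658 and 755 counts to 1461, 1528 and 1508 (1.03, adjusted p = 0.00015), while Smad2 (-0.47) and the shared partner Smad4 (-0.61) fell. Tgfb1, the most abundant gene of the list (-0.52), and the corepressor Tgif1 (-2.85) fell. The ligand Tgfb3 rose by 2.46 from at most 19 counts in WT. Only 1 gene of the list was called higher without WT replicate 3 or VC replicate 12.

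Of 5 tested genes around the glucocorticoid receptor, an inducer of Klf9, 0 rose and 3 fell, and the median was -1.45. The receptor itself, Nr3c1, did not pass the test (0.43, adjusted p = 0.17). Its targets Tsc22d3, Per1 and Sgk1 fell, Sgk1 from 2150, 2876 and 2281 counts to 555, 588 and 507 (-2.28, adjusted p = 5.4e-05) and Tsc22d3 from 6757, 6547 and 4700 to 2467, 1529 and 1310 (-1.90, adjusted p = 0.0012). Fkbp5, another target, stood at -0.50 (adjusted p = 0.45).

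Genes reported as targets of the members in other cells did not move one way. Of 10 tested, 3 rose, 3 fell and 4 did not pass the test, with a median of 0.25. S1pr1, a homing gene that Klf2 activates in T cells, fell from 301, 449 and 404 counts to 144, 203 and 141 (-1.37 on the log2 scale). Reported Klf6 targets differed in direction, in that the cell cycle inhibitor Cdkn1a (p21) fell from 15374, 9766 and 8795 counts to 2250, 1405 and 1279 (-2.92, adjusted p = 0.00028) and Eng (endoglin) rose from 4, 3 and 3 counts to 232, 236 and 268 (adjusted p = 1.9e-05). Itgb7, which encodes an integrin chain, was the most abundant of the list and rose by 1.29. Lgals3 fell by 2.61, and Ccl5, the target of Klf13, stood at 0.51 (adjusted p = 0.43) with at most 24 counts in any library.

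**Figure D4:**
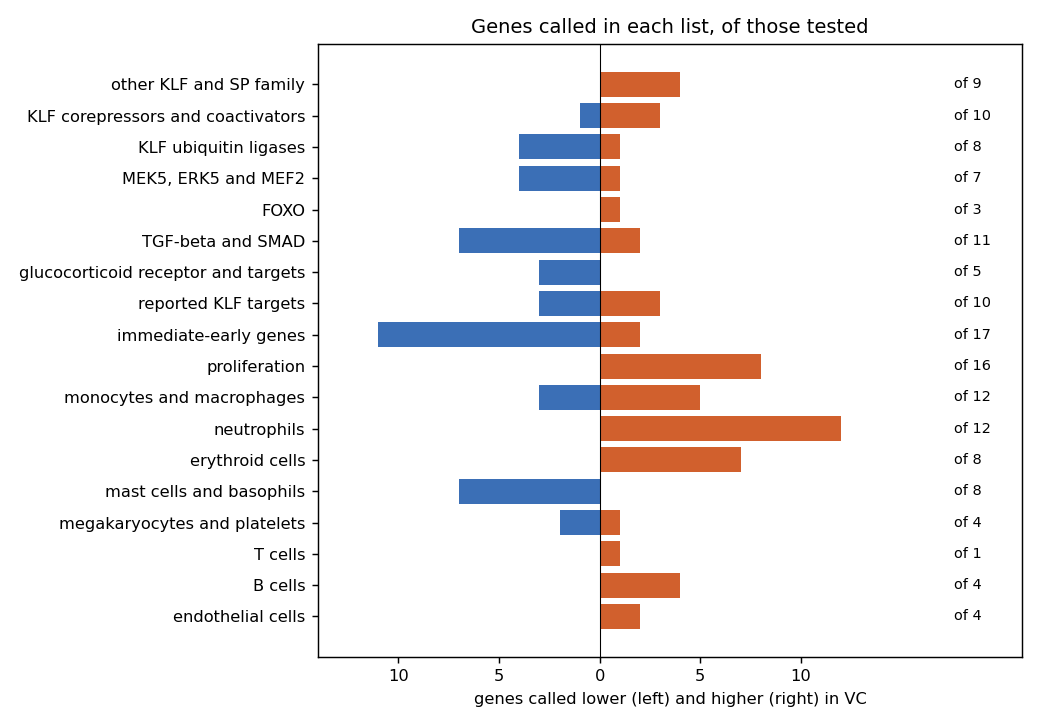
Genes called lower (blue, left) and higher (orange, right) in VC cells in each list, with the number tested at the right. The ubiquitin ligase, MEK5, ERK5 and MEF2, TGF-β, glucocorticoid, immediate-early, mast cell and megakaryocyte lists have more genes called lower than higher. The other KLF and SP genes and the FOXO, proliferation, neutrophil, erythroid, T cell, B cell and endothelial lists have none called lower.

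Klf2, Klf4, Klf6 and Klf10 belong to the genes that respond within minutes to handling or stimulation. A list of classical immediate-early genes and 2 heat shock genes was therefore set beside them. Of 17 tested, 2 rose, 11 fell and 4 did not pass the test, with a median of -1.13. Fosb, a subunit of AP-1 and the most abundant, counted 229601, 200133 and 144995 reads in WT and 102084, 60371 and 56852 in VC (log2 fold change -1.53, adjusted p = 0.0045). The 2 that rose were the heat shock genes Hspa1a, from 191, 109 and 215 counts to 7800, 8990 and 7850 (5.46, adjusted p = 1.9e-05), and Hspa1b. The summed level of the list was 45344, 41983 and 29516 CPM in WT and 22842, 15845 and 15317 CPM in VC. Klf2 and Klf6 took the same order over the libraries, highest in replicates 1 and 11 and lowest in replicates 3 and 13 of their groups. Klf10 did not, being highest in VC replicate 13 of the VC libraries. The sum is weighted to abundant genes such as Fosb, which took its order, and not every gene of the list did. Fos and Egr1 were highest in WT replicate 2, where Jun was lowest of the WT libraries. The part of sorting and handling in these levels was not tested.

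**Figure D5:**
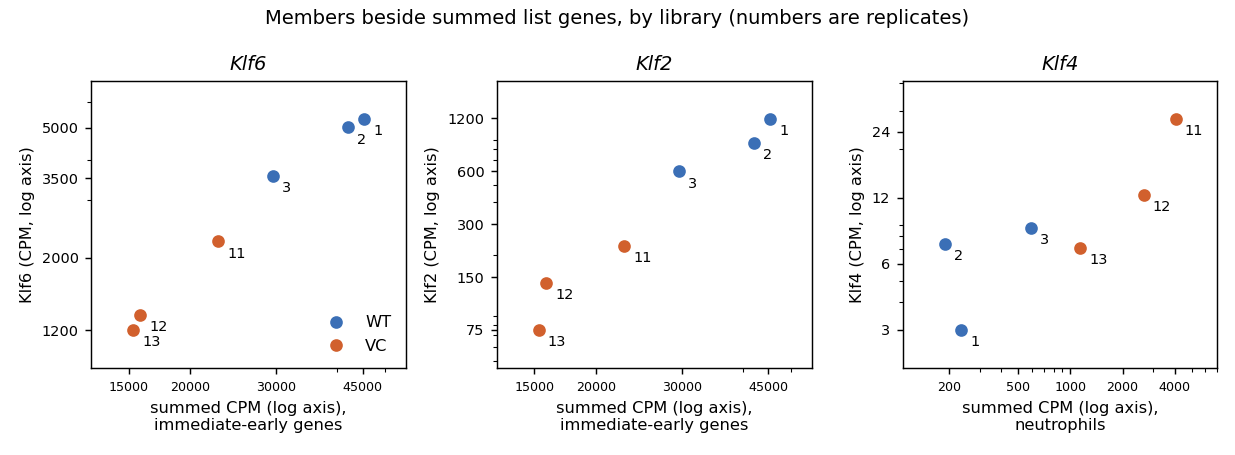
CPM of Klf6 and Klf2 is shown against the summed CPM of the 17 genes of the immediate-early list. CPM of Klf4 is shown against the summed CPM of the 12 neutrophil markers. Each point is 1 library labelled with its replicate number, and all axes are logarithmic. Klf6 and Klf2 are ordered as the immediate-early sum is, and Klf4 in VC cells is highest in replicate 11 and lowest in replicate 13, as the neutrophil sum is, while in WT cells the orders differ.

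Proliferation and other cell types were read from marker lists. Of 16 proliferation genes, 8 rose and 0 fell (median 0.47), among them Mki67, the most abundant, by 0.57 (adjusted p = 0.015, and 0.054 without VC replicate 12) and the mitotic kinase Aurka by 1.03 (adjusted p = 0.0049). Their count depended on single libraries, with 4 called without WT replicate 1 or VC replicate 13, 3 without VC replicate 11, 2 without VC replicate 12 and 14 without WT replicate 3. All 12 neutrophil markers rose (median 2.90), Camp by 3.39 (adjusted p = 0.0014), and their summed level was 235, 188 and 594 CPM in WT and 4056, 2647 and 1143 CPM in VC, with S100a9 the most abundant. Of 12 monocyte and macrophage markers, 5 rose and 3 fell (median 0.58, summed 542, 511 and 485 against 785, 528 and 322 CPM). Of these, Ly6c2 and Lyz2 rose, whereas Cx3cr1 fell from 1384, 1373 and 995 counts to 34, 33 and 8 (adjusted p = 5.9e-05) and Zeb2, the most abundant, fell too (-1.45 on the log2 scale). Csf1r, which defines the lineage, stood at 0.58 (adjusted p = 0.20). Within the VC libraries Klf4 took the order of the neutrophil and monocyte sums, and also that of the immediate-early sum. Within the WT libraries it took the reverse order of the monocyte and immediate-early sums, and the neutrophil sum was lowest in replicate 2, where Klf4 was not. The part of such cells in the Klf4 level was not tested. Fewer cells of a type and less RNA per cell cannot be told apart in bulk libraries.

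Of 8 erythroid markers 7 rose and 0 fell (median 1.63), Epor by 1.38 (adjusted p = 4.4e-05), while Gata1 stood at 0.12 (adjusted p = 0.38). The erythroid sum was 2309, 1553 and 2135 CPM in WT and 4956, 5441 and 4767 CPM in VC, with Hbb-bs the most abundant. Mast cell and basophil markers, like Klf2 and Klf6, were lower in VC: 7 of 8 fell and 0 rose (median -1.81). Their sum went from 19490, 21413 and 14123 CPM to 4918, 4919 and 5329 CPM. Within the groups the order differed, as this sum was highest in WT replicate 2 and VC replicate 13. Klf2 and Klf6 were highest in WT replicate 1 and VC replicate 11. Hdc was the most abundant, and Fcer1a fell most clearly, from 12065, 8395 and 7528 counts to 92, 92 and 86 (adjusted p = 1.9e-05), while Ms4a2, which encodes another chain of the same receptor, stood at -0.13 (adjusted p = 0.52). Kit and Gata2, also on that list, are expressed in early progenitors too. The part of such cells in the Klf2 and Klf6 levels was not tested.

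Markers of 4 further lineages were read in the same way. Of 4 tested megakaryocyte and platelet markers 1 rose (Gp9) and 2 fell (median -0.79), led by Itga2b, from 4479, 3734 and 2734 counts to 241, 244 and 243 (sum 362, 315 and 247 against 37.1, 43.8 and 42.7 CPM). T cell markers summed to at most 10.6 CPM in any library, with 1 of 8 tested (Lck, which rose by 3.25) and Cd3e at no more than 6 counts. B cell markers summed to at most 26.9 CPM, and all 4 tested of 6 rose (median 4.59), Cd79a from 10, 7 and 2 counts to 84, 77 and 40. Endothelial markers summed to at most 60.3 CPM, with Emcn at 0 in all libraries, and of 4 tested 2 rose (median 0.87). Egfl7 rose by 0.54 (adjusted p = 0.037), a call lost without WT replicate 1 or 3 or VC replicate 11 or 13 (adjusted p = 0.086 to 0.12), and Tek went from no count to 72, 217 and 27. In the WT libraries, where Klf2 was highest, the endothelial marker Cdh5 had 2, 2 and 3 counts and Egfl7 386, 562 and 476, and Cd3e had 0, 1 and 2. The part of such cells in the Klf2 level was not tested.

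The genes whose levels most closely followed those of Klf2 and Klf10, the called members with the largest decrease and the largest increase, were sought among 9196 genes (those averaging 3 or more in log2 CPM), as a description over 6 libraries that fall into 2 groups, so that any gene with a group difference scores high. For Klf2 they were Phf2, a histone demethylase (Pearson r = 0.995, log2 fold change -0.37), Rhob, a small GTPase (r = 0.993, -2.48), and Tyrobp, a myeloid signalling adaptor (r = 0.993, -1.88). Rhob counted 23719, 16173 and 14350 reads in WT and 5040, 3220 and 2431 in VC, a course close to that of Klf2 in size as well. For Klf10 they were Arpc1a, an actin-nucleating subunit (r = 0.996, 0.28), Mrpl2, a mitochondrial ribosomal protein (r = 0.996, 0.47), and Leng8 (r = 0.995, 0.68), each with a smaller log2 fold change than Klf10. The call of Arpc1a was lost without any 1 VC library (adjusted p = 0.071 to 0.097) and with no count filter (0.061). That of Mrpl2 was lost without VC replicate 12 or 13 (adjusted p = 0.055 and 0.057), and that of Phf2 without VC replicate 13 (0.052) and with totals alone (0.078).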

How the data were processed

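RNA was prepared with the Illumina TruSeq kit and sequenced as 150-bp pairs. The submitters' processing notes name Bowtie 0.12.0 and the build mm8, with no role given, whereas 98.26% of the 54409 deposited gene positions found in GENCODE M21 match it exactly (GRCm38). The counting tool, the annotation and strandedness are not given in the sources used here, so reads from opposite strands cannot be told apart. The deposited counts per gene are whole and not normalized, and the deposited FPKM values are those counts divided by gene length and a scaled library size, as a check within 0.1% in 100.0% of genes showed. The deposited Klf9 gene model ends before that of GENCODE M21. The authors' own group means, fold changes and p-values in the table were not used. The 8 members and all lists were chosen with earlier results of these data known.

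edgeR 4.0.16 (R 4.3.3) filtered genes with filterByExpr, scaled by TMM and ran the quasi-likelihood test, adjusted by Benjamini and Hochberg's method over 14169 genes at 0.05, tested first on simulated data. With 3 libraries against 3, an exact permutation test of a single gene cannot go below p = 0.1. Named genes were Phf6, the members, all tested KLF and SP genes, the most abundant and the smallest-p gene of each list, and the 3 genes most like Klf2 and Klf10. Other named genes were chosen after their values were seen. CPM uses TMM-scaled library sizes. Alternatives were DESeq2 1.42.0, its size factors, totals alone, testing unfiltered genes or those with 10 counts or more throughout, limma 3.58.1 on log2 of FPKM plus 1 or 0.1, a threshold of 0.01, and leaving out each library. Promoters and motifs were read from RefSeq windows for 7 of 8 members, and Klf10 had none. Some genes that the lists hold are not reported here by name.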

Additional observations from a re-analysis of the deposited data

How the results depend on the processing

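Each member was recomputed under 14 alternatives. Klf2, Klf3, Klf6 and Klf10 kept their direction and their side of the threshold in all 14, with log2 fold changes of -3.04 to -2.28 for Klf2, -1.86 to -1.38 for Klf6 and 1.01 to 1.49 for Klf10. Leaving out 1 library at a time moved Klf4 between 0.62 and 1.64, Klf9 between -0.995 and -0.558 and Klf7 between -0.047 (without WT replicate 3) and 0.12. It moved the count of members called higher between 1 and 2. Klf4 was called with DESeq2 (1.29) and with no count filter (1.29), and Klf13 with totals alone (0.39), so that 2 members were called higher in each. Klf11 reversed without WT replicate 2 (-0.03) and without VC replicate 11 (-0.13), in a range up to 0.28 over the single libraries left out. The cause of these changes was not tested, beyond the fewer libraries. No paired analysis was possible because the groups share no replicate numbers.

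At a threshold of 0.01, 1690 genes were called higher and 2110 lower, Klf9 (-0.79) was not called, and higher calls numbered 1 for corepressors and coactivators, 0 for MEK5, ERK5 and MEF2, 1 each for TGF-β, proliferation and endothelial genes and 3 for monocytes, while lower calls numbered 0 for corepressors and for MEK5, ERK5 and MEF2. With at least 10 counts in every library, which tests fewer genes, higher calls numbered 2 for the other KLF and SP genes, 1 for TGF-β and endothelial genes, and 0 for MEK5, ERK5 and MEF2, megakaryocytes, T cells and B cells, and 1 monocyte gene was called lower. Of MEK5, ERK5 and MEF2 genes 0 were called higher with limma on log2(FPKM + 1) and 0 lower with totals alone, and 1 other KLF or SP gene was called lower with no count filter. Leaving out 1 library gave higher calls of 1 to 4 for corepressors, 0 to 1 for MEK5, ERK5 and MEF2, 1 to 2 for TGF-β, 0 to 1 for glucocorticoid genes, 2 to 14 for proliferation, 1 to 2 for T cells and 1 to 3 for endothelial genes, and lower calls of 0 to 1 for other KLF and SP genes, 0 to 2 for corepressors and 1 to 4 for MEK5, ERK5 and MEF2. Some tested genes held few counts in every library, such as Gp9 (0 to 24), Ctbp2 (5 to 35) and Klf8 (0 to 62).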
